A study of Mus musculus with 6 samples.

Results

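The baseline transcriptome of adult mouse corneal epithelium was described from the 3 control samples of a series of 6 bulk RNA-seq samples. All 3 samples labelled as control were taken, with no choice by measured values, and every one of the 17784 genes in the table was used. The labels call the control mice ctrl or WT and give no allele. A figure panel of the study names its controls *Ptch1* f/f, that is with the floxed allele and no *Prrx1-CreERT* recombinase, on a line backcrossed to C57BL/6, so the genotype rests on that panel and was not checked. The labels give an age of 10 weeks and 3 doses of tamoxifen, and name a period of 2 months without saying whether it ran during or after dosing. Tamoxifen was thus given to the controls too, and an untreated mouse was not analysed here. The epithelium was separated from the cornea with EDTA, and the sources used here do not state whether animals were pooled within a sample or which sex each sample came from. The values therefore describe tamoxifen-treated epithelium, and any spread between samples may be biological or technical.

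The corneal epithelium is the stratified, non-cornified surface layer of the cornea. Basal cells rest on a basement membrane and divide, their daughters move up and flatten, and the lost cells are replaced from progenitors at the limbus, the rim where cornea meets conjunctiva. Keratin filaments of the Krt5 and Krt12 proteins give the cells strength, a layer of membrane mucins holds the tear film, and soluble enzymes known as corneal crystallins are thought to serve transparency and protection from light. Pax6 is the transcription factor that sets and keeps eye identity.

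Levels are given in TPM, which corrects for gene length and sums to the same total in each sample, so that a percentage of TPM is a share of all transcripts and genes can be compared with each other. Depth was even, with totals of 20550100, 20415942 and 20464519 expected counts for replicates 1, 2 and 3. The limit that a count of 0 allows, 3 counts, came to 0.146, 0.147 and 0.147 CPM and takes in no error other than counting. No sample was a copy of another: chi-square values divided by their degrees of freedom were 8.56 for replicates 1 and 2, 14.9 for 1 and 3 and 9.39 for 2 and 3, so each was kept.

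By the number of genes at least 2-fold apart, replicate 3 stood apart from the other 2 samples more often than either of them did. Among the 11889 genes with a mean of at least 1 TPM, 83 were at least 2-fold higher in replicate 3 than in both other samples, against 21 for replicate 1 and 15 for replicate 2. Genes at least 2-fold lower than in both other samples numbered 26 in replicate 3, 58 in replicate 1 and 48 in replicate 2. Whatever the size of the difference, replicate 3 was the highest sample for 43.7% of these genes and the lowest for 23.6%. Replicate 1 was the highest for 21.9% and the lowest for 50.2%. Between replicates 2 and 3 the median absolute log2 difference (TPM plus 1) was 0.110. It was 0.121 for 1 and 2 and 0.135 for 1 and 3, so replicate 1 lay furthest off by this measure.

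Of the 17784 genes, 11578 reached 1 TPM in all 3 samples, which is 65.1% of those listed. At 10 TPM the number was 8058, at 100 TPM 1399, at 1000 TPM 117 and at 10000 TPM 6. The 1399 genes at 100 TPM or more held 72.4% of TPM. At the other end 797 genes had 0 counts in all 3 samples, and a single sample had 2070, 1984 or 1830 genes at 0. Transcripts were concentrated in few genes. The highest gene alone held 4.69% ± 0.25 of TPM (SD, n = 3), the 10 highest held 17.5% ± 0.12, and the 100 highest held 37.8% ± 0.79. The 50% mark was reached with 236, 265 and 275 genes, and the 90% mark with 4210, 4349 and 4424.

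**Figure D1:**
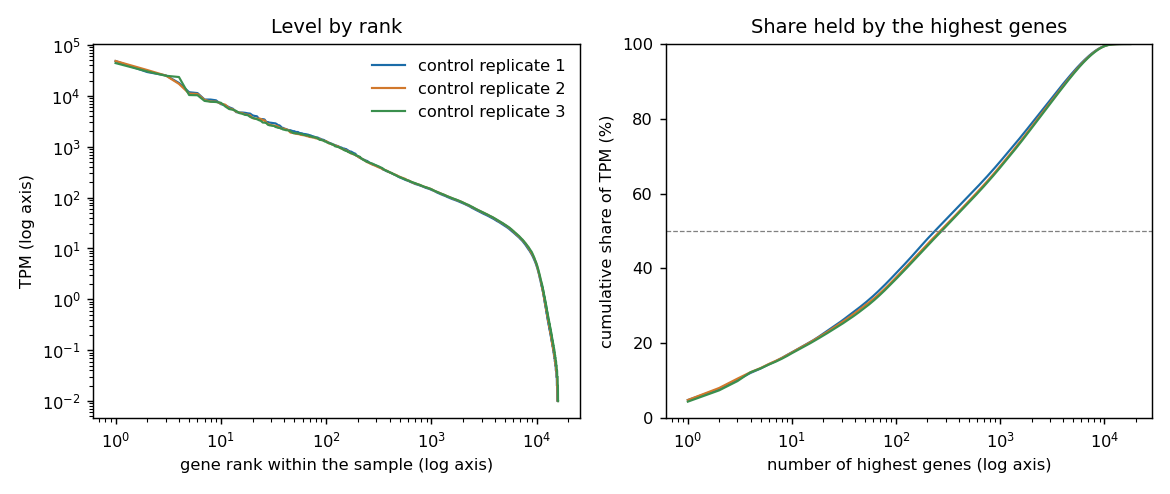
Left, TPM of each gene against its rank within the sample, both on log axes; right, cumulative share of TPM in % against the number of highest genes (log axis), with a dashed line at 50%. Each line is 1 of the 3 control samples; the lines nearly coincide, and replicate 1 reaches 50% with 236 genes, before replicates 2 and 3 with 265 and 275.

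*Krt12* (gene 268482), the type I keratin that defines corneal epithelium, was the most abundant transcript. It had 48269.9, 48395.9 and 44025.1 TPM in replicates 1, 2 and 3, a mean of 46897 ± 2488 (SD, n = 3). *Aldh3a1* (gene 11670), an aldehyde dehydrogenase that is a major corneal crystallin, came second with 29346, 32148 and 30161 TPM. *Krt5* (gene 110308), the type II keratin of basal cells, followed with 25216, 25015 and 23428 TPM. These 3 genes together held 10.2% ± 0.40 of TPM, and the ranges of their samples did not overlap. *Pax6* (gene 18508), a transcription factor, was far lower, with 409, 430 and 433 TPM. All 4 defining markers were thus present at 100 TPM or more in every sample, a level that 7.87% of all genes listed reached.

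The start of the *Krt12* gene is shown because it drives the highest transcript. The 60 bases just before its start in RefSeq (GRCm38.p6, chr11:99422260-99422319, minus strand) hold the letters TATAAA, in capitals, which begin 29 bases before the start:
*Krt12*: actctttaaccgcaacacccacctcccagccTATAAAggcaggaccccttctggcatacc
TATAAA was searched on the strand of the gene, from 40 to 15 bases before the start. Of the 30 genes of highest mean TPM, 20 had a promoter in the table, and 2 of these held the letters, *Krt12* and *Dapl1*. The share was 2.41% over all 27025 genes of the promoter table and 1.45% over those with a mean of at least 1 TPM. With so few genes this is a description only.

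Below the first 3 genes the order was *Gsto1*, *Gsta4*, *Lypd2*, *Aqp5*, *Tmsb4x*, *Eef1a1* and *Calml3*. *Gsto1* and *Gsta4* encode glutathione transferases, *Lypd2* a small surface protein of the Ly6 family, *Aqp5* a water channel, *Tmsb4x* the actin-binding thymosin beta 4, *Eef1a1* a translation elongation factor and *Calml3* a calmodulin-like protein of epithelia. *Gsto1* had 17912, 17182 and 24810 TPM, so that replicate 3 lay 1.44-fold above the lowest sample, a spread far wider than the 3.99% CV of *Krt5*. The expected counts of *Gsto1* had the same order, with 198536, 184792 and 266217. Its range overlapped that of *Krt5*, and their order was reversed in replicate 3. *Gsta4* (11770, 11075 and 10272 TPM) and *Lypd2* (11320, 10871 and 10365 TPM) also overlapped, as did *Aqp5*, *Tmsb4x* and *Eef1a1*, which had means of 8115, 8038 and 7843 TPM. Among the 10 highest genes, 5 of the 9 neighbouring pairs had ranges that did not overlap, and among the 30 highest, 10 of 29.

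Ranks 11 to 30 ran from *Tkt*, with 6478 ± 260 TPM (SD, n = 3), to *Dapl1*, with 2708 ± 355. *Tkt* encodes transketolase, an enzyme of the pentose phosphate pathway. Among these 20 genes were cytoskeletal and membrane-binding genes (*Actg1*, *Anxa2*), further keratins (*Krt6b*, *Krt6a*), calcium-binding S100 proteins (*S100a11*, *S100a6*), Ly6-type proteins (*Psca*, *Slurp1*), membrane proteins of differentiated epithelia (*Emp1*, *Upk3bl*, *Mal*, *Perp*), the protease *Asprv1*, the mitochondrial protein gene *Mgarp*, the small heat shock gene *Hspb1*, the translation-linked gene *Tpt1* and the ribosomal protein genes *Rpl13* and *Rpl23a*. *Slurp1*, a secreted Ly6-type protein, had 4468, 3558 and 2910 TPM and the widest spread among the 30 (CV 21.5%). *S100a11*, with 4696, 4685 and 4578 TPM, had the narrowest (CV 1.40%). The ranks 11 to 30 were therefore loosely ordered, and few neighbours were set apart by all 3 samples.

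**Figure D2:**
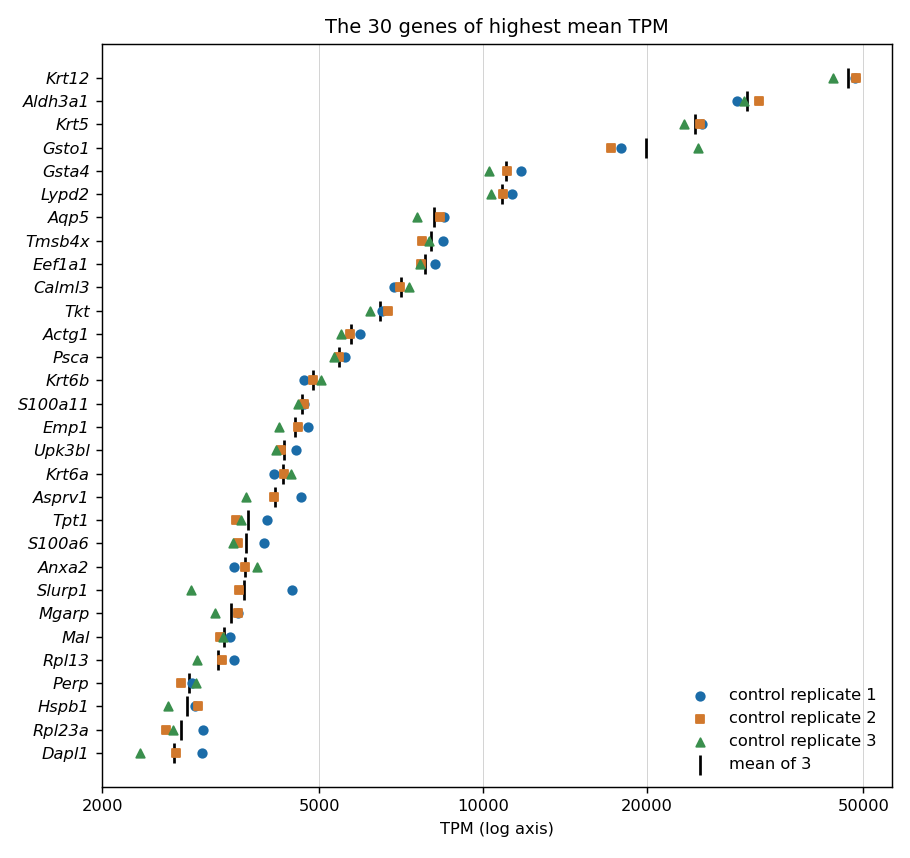
TPM (log axis) of the 30 genes of highest mean TPM, with 1 symbol for each of the 3 control samples and a black bar for their mean. *Krt12*, *Aldh3a1* and *Krt5* lie in separate ranges, *Gsto1* has 1 sample far to the right (24810 TPM in replicate 3), and most neighbours from rank 11 down overlap.

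Ranking by CPM, which does not correct for length, placed long genes higher. *Muc4*, a membrane mucin with an effective length of 11228 bases, was at rank 9 by CPM and at rank 123 by TPM. *Dsp*, the desmosome protein desmoplakin, moved from rank 115 by TPM to rank 13 by CPM. *Col17a1* (rank 78) and *Actn4* (rank 41) moved to ranks 17 and 18. *Krt12* and *Gsto1* held ranks 1 and 4 on both scales, while *Aldh3a1* and *Krt5*, at ranks 2 and 3 by TPM, changed places by CPM.

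Keratins held 8.51% ± 0.25 of TPM (SD, n = 3), and type I exceeded type II by 1.46-, 1.47- and 1.42-fold in replicates 1, 2 and 3. Keratin filaments pair a type I with a type II chain. *Krt12* was 93.1% of the type I total and *Krt5* 70.7% of the type II total, and the ratio of *Krt12* to *Krt5* was 1.91 ± 0.03. Of 23 type I genes, 10 reached 1 TPM in all 3 samples, and of 23 type II genes, 11, against 65.1% of all genes listed. *Krt14*, the usual partner of Krt5 in skin, had 534, 535 and 644 TPM, and *Krt5* was 43.5 ± 6.1 times as high.

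After *Krt5* the type II genes *Krt6b* (4698, 4879 and 5045 TPM) and *Krt6a* (4134, 4308 and 4433 TPM) were highest. They are close relatives that can share reads, and their sum varied by 3.53% (CV). *Krt80* followed with 667 ± 11 TPM. The type I genes *Krt13* (1193, 1553 and 1877 TPM) and *Krt15* (847, 1097 and 1528 TPM), known from limbal and conjunctival cells, were lowest in replicate 1 and highest in replicate 3. *Krt19*, of the same regions, behaved alike with 85.6, 133 and 209 TPM, and so did *Krt4* with 105, 152 and 223 TPM and *Krt7* with 23.9, 33.5 and 42.0 TPM. The simple-epithelium keratins *Krt8* and *Krt18* were low at 13.5 and 4.84 TPM, as were the epidermal *Krt10* and *Krt1* at 8.10 and 4.97 TPM. In bulk samples, fewer cells of a type and less RNA per cell cannot be told apart.

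The list of crystallin and defence enzymes held 4.46% ± 0.16 of TPM. All 19 of its matched genes reached 1 TPM in every sample, against 65.1% of all genes listed. *Aldh3a1* made up 68.5% of the list. *Tkt* (6478 TPM), *Ppia* (2591 TPM), *Gapdh* (1728 TPM) and *Glul* (1298 TPM) followed, enzymes with general roles in the cell. *Aldh1a1*, another corneal aldehyde dehydrogenase, had 182, 247 and 268 TPM, and *Aldh3a1* was 135 ± 25 times as high. *Cryab*, a small heat shock crystallin, had 244, 148 and 175 TPM. The antioxidant and glutathione list held 3.95% ± 0.37 of TPM, with *Gsto1* at 50.6% of it and *Gsta4* second. *Fth1* (ferritin), *Prdx6* and *Prdx5* (peroxiredoxins) came next at 1719, 980 and 784 TPM, while *Gpx2*, *Gpx3* and *Sod3* stayed under 1 TPM on average. In the pentose phosphate list *Tkt* made up 82.7% of the total, and the glycolysis list, led by *Gapdh*, held 0.517% ± 0.013 of TPM.

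The median level of the transcription factors of corneal identity was 73.9 TPM, against 8.38 TPM over all genes listed. Of these 28 factors, 26 reached 1 TPM in every sample, against 65.1% of all genes listed. *Klf4* (1106, 1153 and 1120 TPM) and *Elf3* (1055, 968 and 1013 TPM), which drive late epithelial genes, were highest. *Hopx* had 895, 834 and 713 TPM. *Zfp750* and *Ehf*, factors of epithelial differentiation, had 325 and 310 TPM. *Trp63*, the basal cell factor p63, had 159, 175 and 196 TPM. *Gata3* had 0.13, 0.10 and 0.10 TPM.

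Among 27 limbal and progenitor markers, 20 reached 1 TPM in every sample and 7 had a mean under 1 TPM. Of all 17784 genes listed, 65.1% reached 1 TPM in every sample and 5895 had a mean under 1 TPM. *Krt15*, *Mt2* and *Mt1* (metallothioneins), *Krt14*, *Txnip* and *Slc6a6* were the 6 highest. The more restricted markers were lower. *Gpha2*, a hormone subunit known from limbal stem cells, had 58.4, 51.1 and 78.9 TPM. *Abcg2*, a transporter of side population cells, had 26.0, 22.1 and 23.9 TPM, and *Wnt7a*, *Lgr5* and *Sox2* had means of 0.16 TPM or less. The list as a whole held 0.461%, 0.516% and 0.602% of TPM, lowest in replicate 1 and highest in replicate 3, and without replicate 3 its mean share was 0.489% in place of 0.526%.

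All 36 cell cycle genes reached 1 TPM in every sample, against 65.1% of all genes listed. Highest were *Cdkn1a* (291 TPM), an inhibitor of cyclin-dependent kinases, *Ccnd1* (276 TPM), a cyclin of the G1 phase, and *Cdk4* (175 TPM). *Mki67*, the Ki67 proliferation antigen, had 27.0, 31.7 and 44.0 TPM. The cell cycle list as a whole was even across samples, with 0.193% ± 0.003 of TPM, although its parts were not, as described with the differences between samples.

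The basal adhesion list was led by *Col17a1*, a collagen of the hemidesmosome that anchors basal cells, with 1515, 1539 and 1546 TPM. It made up 45.0% of the list and was 7.24 ± 0.57 times as high as *Itgb4*, its integrin partner in the hemidesmosome. *Itga6*, *Cd151*, *Itga3* and *Dst* followed at 166, 150, 134 and 118 TPM. For cell-cell contact, 17 of 27 desmosome and adherens genes reached 100 TPM in every sample, against 7.87% of all genes listed. *Perp* (2891 TPM), *Jup* (1459 TPM), *Dsp* (1112 TPM), *Evpl* (846 TPM), *Ppl* (832 TPM) and *Dsc2* (704 TPM) were highest. *Dsc1* and *Dsg4*, desmosomal cadherins of epidermis and hair, had means under 1 TPM. Of 32 tight and gap junction genes, 25 reached 1 TPM in every sample, against 65.1% of all genes listed. *Cldn4* (657, 472 and 447 TPM) and *Cldn7* (520, 522 and 482 TPM) were the highest claudins, *Cldn1* had 14.7 TPM, and the endothelial *Cldn5* was near 0. *Gja1* (connexin 43) led the gap junction genes with 244 ± 9.1 TPM.

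At the cell surface, *Aqp5* was the leading channel, with 8465, 8326 and 7554 TPM, 4.28 ± 0.43 times as high as *Aqp3*, which also carries glycerol. *Aqp1* and *Aqp4*, water channels of other tissues, did not exceed 0.20 TPM in any sample. Among the mucins of the list, *Muc4* (996, 1043 and 1085 TPM) was highest, followed by *Muc20* (284 TPM), *Muc15* (209 TPM) and *Muc1* (69.8 TPM). *Gm9573*, outside the list and given the synonym *Muc21* in RefSeq, had 584, 351 and 672 TPM. *Muc16*, a mucin of the human ocular surface, had 0.06, 0.05 and 0.11 TPM. *Lgals3*, a galectin that binds mucin sugars, had 1287 ± 25 TPM. The cornification list, which covers the hard outer layer of skin, held 0.0217% ± 0.0063 of TPM. *Sprr1a* (120, 51.9 and 61.3 TPM) and *Tgm1* (64.1, 36.7 and 32.5 TPM) led it, both highest in replicate 1. Of the 14 cornification genes with a mean of at least 1 TPM, 11 were highest in replicate 1, against 21.9% of all genes at that level. *Lor* and *Flg*, which encode the main proteins of the epidermal envelope, had means of 0.18 and 0.013 TPM. Of the 35 cornification genes, 21 had means under 1 TPM, against 5895 of all 17784 genes listed.

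**Figure D3:**
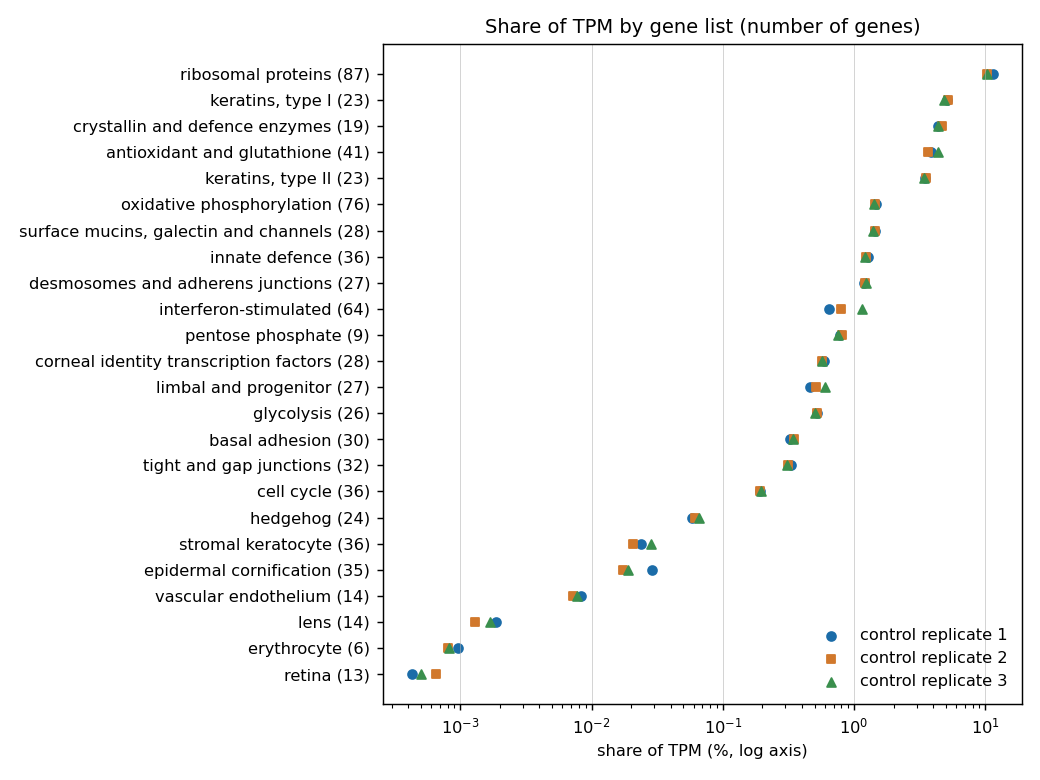
Share of TPM (%, log axis) held by selected gene lists, with the number of matched genes in brackets and 1 symbol for each control sample. Ribosomal protein genes, keratins and the 2 enzyme lists hold the largest shares, and the lists of retina, erythrocyte and lens genes the smallest of those plotted; the interferon-stimulated list spreads from 0.649% to 1.14%.

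Hedgehog signaling runs from ligands through the receptor Ptch1 and the transducer Smo to the Gli transcription factors, of which *Gli1* is also a target. The list held 24 matched genes, of which 15 reached 1 TPM in every sample, against 65.1% of all genes listed. Means under 1 TPM were found for 7, against 5895 of all 17784 genes listed. Of these 7, 2 were at 0 in all 3 samples. Among ligands, *Ihh* and *Dhh* had means of 0.043 and 0.027 TPM. Among receptors and co-receptors, *Ptch1* had 7.31, 9.70 and 10.2 TPM, *Gas1* 112, 146 and 161 TPM, *Boc* 29.4 ± 2.3 TPM and *Cdon* 19.2 ± 1.4 TPM, while *Scube2*, which helps release the ligands, was listed at 0 in all 3 samples. *Smo* had 13.3, 7.89 and 13.0 TPM. The transcription factors *Gli2* and *Gli3* had 2.46 and 2.75 TPM, and *Gli1* had 0.03, 0 and 0.09 TPM. The targets and inhibitors stood at 1.96 TPM for *Hhip* and 14.8 TPM for *Sufu*. Further members were the kinases *Csnk1a1* (191 TPM), *Prkaca* (70.8 TPM), *Gsk3b* (47.3 TPM) and *Stk36* (1.05 TPM), the ubiquitin ligase adaptor *Spop* (65.6 TPM), the ligand-processing genes *Disp1* (8.98 TPM), *Hhat* (1.75 TPM) and *Disp2* (0.0067 TPM), and the ciliary regulators *Gpr161* (1.11 TPM) and *Kif7* (0.71 TPM). *Ptch1*, *Gas1*, *Boc* and *Cdon* were above the ligands and *Gli1* in each sample.

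*Notch3* (149 TPM) exceeded *Notch1* (41.0 TPM) and *Notch2* (28.1 TPM), with the ligands *Jag2* and *Jag1* at 88.4 and 72.5 TPM and the target *Hes1* at 334, 305 and 238 TPM. *Notch4* and *Dll4*, known from endothelium, had 0.08 TPM and 0. Among Wnt genes, *Dkk3* (277 TPM), *Wnt4* (180 TPM), *Wnt7b* (150 TPM) and *Sfrp1* (112 TPM) led, and the target *Axin2* had 1.31 TPM. In the Hippo pathway, *Yap1* and its partner *Tead3* had 138 and 141 TPM, and the YAP targets *Ccn1*, *Ccn2* and *Ankrd1* had 80.0, 1.27 and 0.16 TPM. The EGF receptors *Egfr*, *Erbb2* and *Erbb3* lay between 99.3 and 105 TPM, whereas *Erbb4* was near 0 (0.0067 TPM), and *Hbegf* was the highest ligand at 126 TPM. In retinoid metabolism, *Adh1* (1736 TPM) and *Adh7* (644 TPM), alcohol dehydrogenases, were highest, and *Rarg* (437 TPM) exceeded *Rara* (10.6, 12.8 and 12.6 TPM) and *Rarb* (1.16 TPM).

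Ribosomal protein genes, 87 in the list, held 11.5%, 10.3% and 10.3% of TPM in replicates 1, 2 and 3. Replicate 1 was highest for 80 of the 84 with a mean of at least 1 TPM, against 21.9% of all genes at that level. Their median deviation from the 3-sample mean was 0.10 in replicate 1, -0.05 in replicate 2 and -0.06 in replicate 3 on the log2 scale, while over all genes with a mean of at least 1 TPM it was -0.05, 0.01 and 0.03. Their share of the counts, which are not corrected for length, was 3.59%. The 76 genes of oxidative phosphorylation all reached 1 TPM and held 1.44% ± 0.023, with *Ndufa4* highest at 1287 TPM. Of 58 histone genes, most of them replication-dependent, 13 reached 1 TPM in every sample. Among all genes listed, 65.1% did so. *H1f0*, a linker histone made outside S phase, was the highest histone gene (135 TPM).

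Genes of other cell types were checked next. In the stromal keratocyte list, 23 of 36 had means under 1 TPM, against 5895 of all 17784 genes listed. The list held 0.0239%, 0.0208% and 0.0286% of TPM. Summed levels were 239, 208 and 286 TPM. *Fn1* (153, 126 and 136 TPM), *Sparc* (64.0, 60.9 and 54.4 TPM) and *Pdgfra* (6.91, 6.50 and 5.58 TPM) made up most of them. Without these 3, the sum was 14.5, 14 and 89.8 TPM. The corneal proteoglycan gene *Kera* had 0.06, 0 and 0.07 TPM, and *Dcn* had 0.29, 0.06 and 0.36 TPM.

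In the conjunctiva and goblet list, summed levels were 17118, 17354 and 17424 TPM, of which *Lypd2* gave 62.7%. Without *Lypd2* and *Krt6a* the other 16 genes summed to 1663, 2176 and 2627 TPM, lowest in replicate 1 and highest in replicate 3. Most of this sum was *Krt13* (1193, 1553 and 1877 TPM), already given with the keratins, so the order is no separate result. Goblet cell genes were at or near 0, with *Muc5b* at 0.0033 TPM and *Tff1* and *Tff3* listed at 0 in all 3 samples. For corneal endothelium, 12 of 17 genes had means under 1 TPM, against 5895 of all 17784 genes listed. *Col8a1* and *Col8a2*, collagens of the endothelial basement membrane, had 0.13 and 0.057 TPM.

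Macrophage and dendritic markers summed to 261, 280 and 314 TPM, with the epithelial gene *Epcam* highest (125 TPM). *Itgam*, an integrin of myeloid cells, had 67.0, 86.0 and 101 TPM and *Cd68*, a lysosomal protein of macrophages, had 46.0, 45.3 and 50.1 TPM. Defining genes at or near 0 were *Ptprc* (CD45) at 0.04, 0.02 and 0.20 TPM, *Cd207* (langerin) at 0.047 TPM and *Csf1r* at 0.17 TPM. Of class II antigen presentation, *Cd74* had 11.5, 8.16 and 14.1 TPM and *H2-Aa* 4.44, 2.63 and 5.17 TPM. Of the 10 genes of the list with a mean of at least 1 TPM, 8 were highest in replicate 3, against 43.7% of all genes at that level. The part of such cells in the interferon genes of that sample was not tested. Lymphocyte and granulocyte markers summed to 122, 148 and 143 TPM. *Kit*, a receptor of mast cells and melanocytes, gave 89.2% of this, and *Cd3e*, of T cells, was at 0.073 TPM. Vascular endothelial markers summed to 82.4, 72.2 and 77.4 TPM, with *Pdpn* at 95.8% of them and *Pecam1* and *Cdh5* at 0.060 and 0.010 TPM.

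Nerve and Schwann markers were dominated by *Mal* (3350 TPM), a membrane protein shared with epithelia, and without it they summed to 184, 192 and 184 TPM. *Mbp* and *Ngfr* had 79.0 and 67.6 TPM, whereas *Sox10*, *Gap43*, *Nefm* and *Prph* were listed at 0. The lens list summed to 18.9, 12.9 and 16.8 TPM with *Cryaa* highest (8.95, 2.57 and 7.61 TPM), the retina list to 4.3, 6.6 and 5.0 TPM, the erythrocyte list to 9.7, 8.0 and 8.2 TPM and the melanocyte list to 117, 144 and 136 TPM, nearly all *Kit*, with *Tyrp1* at 0.027 TPM. Muscle genes summed to 41.2, 57.5 and 54.2 TPM, of which *Tnni2* gave 92.8%, and *Ckm* had 0.073 TPM. Gland genes summed to 953, 899 and 825 TPM, of which the desaturase gene *Scd2* gave 96.0%. Among 6 Y-linked genes, *Eif2s3y* (41.1, 41.5 and 37.2 TPM), *Ddx3y*, *Uty* and *Kdm5d* were above 1 TPM in each of the 3 samples. Each sample thus held RNA of male mice, and whether any also held RNA of females was not tested.

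The innate defence list held 1.24% ± 0.028 of TPM, led by the S100 genes *S100a11*, *S100a6* and *S100a10* (1674 TPM), while *S100a8* was listed at 0 in all 3 samples and *S100a9*, its partner, had 0.81 TPM. *Defb1*, a constitutive defensin, had 204, 208 and 217 TPM, and the inducible *Defb4* was listed at 0. *Il18* had 191 TPM and *Il1b* 0.35 TPM.

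Interferon-stimulated genes are switched on by interferons and they hold viruses in check. They were abundant in all 3 samples, with a median of 76.7 TPM, against 8.38 TPM over all genes listed. All but *Iigp1*, 63 of the 64 matched genes, reached 1 TPM in each sample, as did 65.1% of all genes listed. *Ifit1bl1* had 940, 1074 and 1261 TPM. They also varied between the samples. The list held 0.649%, 0.797% and 1.14% of TPM in replicates 1, 2 and 3, and without replicate 3 its mean share was 0.723% in place of 0.862%. Of the 64 genes, 59 were highest in replicate 3, 59 were lowest in replicate 1, and both held for 57. The same order was found for 28.2% of the 11889 genes with a mean of at least 1 TPM. The list was chosen after its values had been seen, so these counts describe the samples and are no test.

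*Ifit3*, an antiviral gene with a near copy that can share its reads, had 217, 340 and 747 TPM. *Rsad2*, which encodes viperin, had 18.1, 25.2 and 66.6 TPM. *Isg15*, a ubiquitin-like modifier, had 229, 310 and 479 TPM. In these genes replicate 3 lay well above the other samples. *Bst2*, the tetherin gene, had 32.6, 47.6 and 105 TPM. *Irf7*, a transcription factor that amplifies the response, had 270, 340 and 509 TPM. The ratio of the highest to the lowest sample had a median of 2.07 over the list, against 1.16 over all genes with a mean of at least 1 TPM. Between replicates 1 and 2 alone these medians were 1.31 and 1.10. *Ifi27* went the other way, with 150, 137 and 62.9 TPM. *Ifitm1*, *Xaf1*, *Irf1* and *Oas1c* were also not highest in replicate 3.

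Genes of class I antigen presentation, which show peptides to T cells, followed the same order, with 11 of 12 highest in replicate 3 and 11 lowest in replicate 1, against 43.7% and 50.2% of all genes with a mean of at least 1 TPM. These counts are no test, as this list too was chosen after its values had been seen. It held 0.203% of TPM on average, and 0.177% without replicate 3. *B2m*, the light chain of class I molecules, had 260, 372 and 790 TPM and *H2-K1* had 282, 341 and 419 TPM. Genes of this family are alike and can share reads. Of the 6 interferon receptor genes, 3 were highest in replicate 3, *Ifngr2* (77.6, 83.4 and 94.2 TPM), *Il10rb* (30.5, 30.8 and 35.8 TPM) and *Ifnar2* (16.1, 12.8 and 17.3 TPM). The other 3 were not, with *Ifnar1* at 12.6, 13.5 and 13.4 TPM, *Ifnlr1* at 18.4, 21.1 and 18.6 TPM and *Ifngr1* at 59.6, 56.9 and 58.6 TPM. Of the ligands, *Ifnb1* and *Ifne* were listed at 0 in all 3 samples, and *Ifnk*, *Ifnl2* and *Ifnl3* did not exceed 0.20 TPM in any.

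Promoters of 6 of these genes are shown because their transcripts moved together between samples, and because they hold the letters known as the core of the interferon-stimulated response element. The letters searched were GAAANNGAAA and, for the other strand, TTTCNNTTTC, where N is any base, and overlapping matches were counted. Each piece is 60 bases upstream of the start, read 5′ to 3′ on the strand of the gene, with matches in capitals, from RefSeq on GRCm38.p6. In order they lie at chr19:34583358-34583417 (plus), chr4:156200852-156200911 (minus), chr12:26456528-26456587 (minus), chr19:34640770-34640829 (plus), chr8:71537558-71537617 (minus) and chr2:122147533-122147592 (plus):
*Ifit3*: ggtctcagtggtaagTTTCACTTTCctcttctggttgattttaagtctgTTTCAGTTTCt
*Isg15*: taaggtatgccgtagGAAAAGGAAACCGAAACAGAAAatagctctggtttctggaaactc
*Rsad2*: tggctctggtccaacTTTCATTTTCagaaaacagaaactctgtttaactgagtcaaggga
*Ifit1*: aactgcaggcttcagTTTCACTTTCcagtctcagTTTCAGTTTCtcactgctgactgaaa
*Bst2*: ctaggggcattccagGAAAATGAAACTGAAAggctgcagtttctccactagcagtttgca
*B2m*: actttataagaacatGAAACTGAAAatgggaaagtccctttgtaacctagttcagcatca
The pieces hold 2 matches in *Ifit3* and in *Ifit1*, 3 that overlap in *Isg15*, 2 that overlap in *Bst2* and 1 each in *Rsad2* and *B2m*. The first match begins 156 bases before the start in *Ifit3* and 78 in *Isg15*. Over windows of 300 bases, 27 of the 51 interferon-stimulated genes with a promoter in the table (52.9%) held at least 1 match, against 3.74% of the 9604 genes with a mean of at least 1 TPM and 3.99% of all 27025. In the class I list it was 2 of 10. The genes printed were chosen with their values and sequences known, and a match does not show that a factor is bound.

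The spread between the samples fell with level. The CV had a median of 7.79% over the 11889 genes with a mean of at least 1 TPM, where counting error alone gives 4.10%. Its median was 40.6% for genes from 0.1 to 1 TPM, 14.3% from 1 to 10, 6.76% from 10 to 100, 5.07% from 100 to 1000 and 5.31% above 1000 TPM. The matching medians of the counting error were 36.9%, 9.28%, 3.55%, 1.65% and 0.769%. The spread was thus close to counting error below 1 TPM and well above it from 100 TPM up. With edgeR the common biological coefficient of variation was 0.111 over 12432 genes. A CV over 20% was seen in 1494 genes (12.6%), and over 50% in 192 (1.61%).

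**Figure D4:**
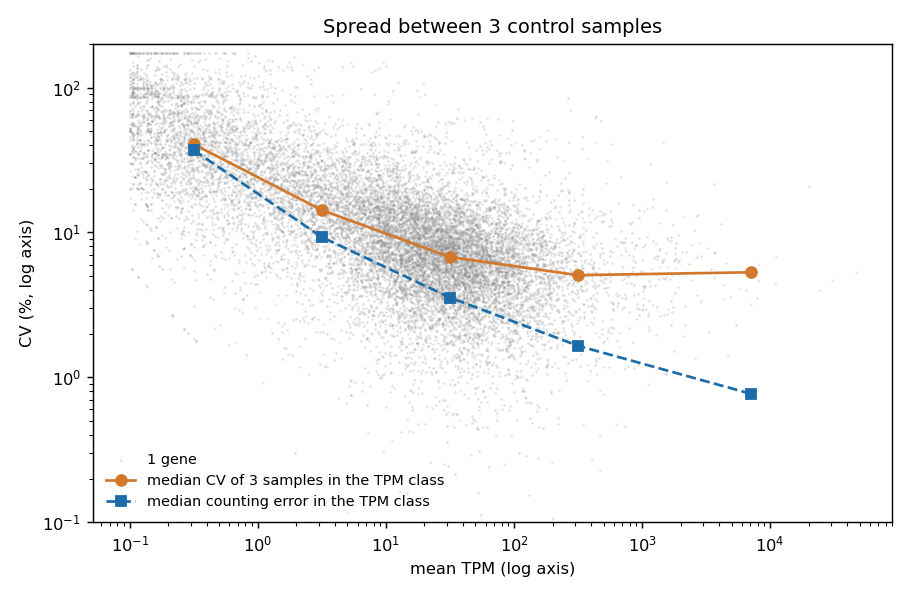
Coefficient of variation of the 3 control samples (%, log axis) against mean TPM (log axis), 1 grey point for each gene. The orange line gives the median in each class of TPM and falls from 40.6% to about 5%, and the blue dashed line gives the median counting error, which falls further, to 0.769%.

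The 10 genes of lowest CV among those with a mean of at least 100 TPM were *Brk1*, *Cwc15*, *Sumo2*, *Atp6ap1*, *Slc25a3*, *Ergic3*, *Rnasek*, *Erh*, *Calr* and *Naxe*, general cell functions such as actin assembly (*Brk1*), splicing (*Cwc15*) and protein folding (*Calr*). *Brk1* had 201.4, 201.3 and 201.0 TPM. For all 10 the CV was below the counting error, which was 2.22% for *Brk1*, so their order has no meaning.

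Of the 10 genes of highest CV among those with a mean of at least 10 TPM, 3 are members of pairs of near-identical genes between which reads can be divided in different ways. *Eif3j1* had 21.1, 0 and 12.7 TPM, but the sum with *Eif3j2* was 50.4, 41.8 and 46.5 TPM, with a CV of 9.33% in place of 94.3%. *Rpl34-ps1*, a pseudogene copy, had 7.27, 356 and 426 TPM, and the sum with *Rpl34* was 854, 775 and 885 TPM (CV 6.78%). *Rhox4a2* had 27.9, 0.13 and 27.5 TPM, and the sum with *Rhox4a* was 49.8, 53.1 and 49.4 TPM (CV 4.03%). The single values of these genes are uncertain.

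The other 7 differed by sample. *Lgals1* (4.75, 4.34 and 28.1 TPM), *S100a4* (8.78, 6.17 and 43.4 TPM) and *Lypd8* (7.71, 7.99 and 37.2 TPM) were high in replicate 3. *Lgals1* and *S100a4* are strongly expressed in mesenchymal cells. *Slfn5*, an interferon-stimulated gene, had 6.20, 23.4 and 42.4 TPM. *Plk3* (41.3, 11.6 and 8.05 TPM) and *Arc* (20.2, 5.38 and 5.67 TPM), genes of rapid response, were high in replicate 1. *Gm42049*, a predicted gene, had 8.46, 19.0 and 3.47 TPM. Of the 100 genes of highest CV at this level, 69 were highest in replicate 3, where 43.0% of all genes at this level were highest. Of the same 100, 27 belonged to the interferon-stimulated and class I lists, which hold 70 of the 8415 genes at this level. Both lists were written after the values had been seen, so this count describes the samples and is no test.

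Of the 36 stromal genes, 24 were highest in replicate 3, against 42.3% of all genes above 0, and those given here were chosen after their values had been seen. *Col1a2*, a collagen I chain, had 1.69, 0.91 and 26.0 TPM. *Vim*, the mesenchymal intermediate filament, had 2.23, 1.71 and 20.8 TPM, *Bgn* had 0.83, 0.74 and 14.5 TPM, and *Prrx1*, the keratocyte gene whose promoter drives the Cre of the study, had 0.49, 0.36 and 4.66 TPM. The 3 members at 5 TPM or more in every sample, *Fn1*, *Sparc* and *Pdgfra*, went the other way, with summed levels of 224, 194 and 196 TPM. Of the remaining members, some were also highest in replicate 3. *Col1a1*, the partner chain of *Col1a2*, had 0.03, 0.05 and 0.66 TPM, *Col3a1* 0.04, 0 and 0.17 TPM, and *Kera* and *Dcn* stayed below 0.40 TPM. In each sample the whole list remained under 0.03% of TPM. Whether stromal RNA had a part in the higher interferon genes of the same sample was not tested.

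All 13 mitotic genes were highest in replicate 3 and lowest in replicate 1, an order found for 28.2% of all genes with a mean of at least 1 TPM. Their summed levels were 320, 389 and 530 TPM, which is 0.0413% of TPM on average and 0.0355% without replicate 3. *Plk1*, a kinase of mitosis, had 18.4, 27.8 and 37.8 TPM, and *Cdc20* had 26.7, 41.6 and 52.4 TPM. All 6 *Mcm* genes, which encode the helicase that licenses replication, were lowest in replicate 3, against 23.6% of all genes, with summed levels of 187, 198 and 147 TPM. *Mcm2* had 29.0, 32.3 and 21.4 TPM. These 2 lists were split from the cell cycle list after the values had been seen.

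Some clock genes were low in replicate 3 as well. *Dbp* had 230, 280 and 139 TPM, *Ciart* 38.0, 29.1 and 9.19 TPM and *Per1* 92.0, 53.7 and 35.7 TPM, while *Arntl* and *Npas2*, of the opposite arm of the clock, were highest there with 34.3, 23.2 and 40.0 TPM and with 5.73, 5.91 and 10.7 TPM. Of 18 clock genes with a mean of at least 1 TPM, 11 were lowest in replicate 3, against 23.6% of all genes at that level. Another 4 were highest there, against 43.7% of all genes. The hour of sampling is not given in the sources used here. Of 23 immediate early genes with a mean of at least 1 TPM, 12 were highest in replicate 1, 10 in replicate 2 and 1 in replicate 3, against 21.9%, 34.3% and 43.7% of all genes at that level. Replicate 3 was lowest for 15 of the 23, against 23.6% of all genes. *Atf3*, chosen after its values had been seen, had 22.7, 2.23 and 1.58 TPM, whereas *Fos* (115, 146 and 128 TPM) and *Jun* (56.9, 62.2 and 61.1 TPM) were highest in replicate 2. In replicate 2 the acute-phase gene *Serpina3n* stood out, with 1.19, 26.4 and 2.43 TPM.

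**Figure D5:**
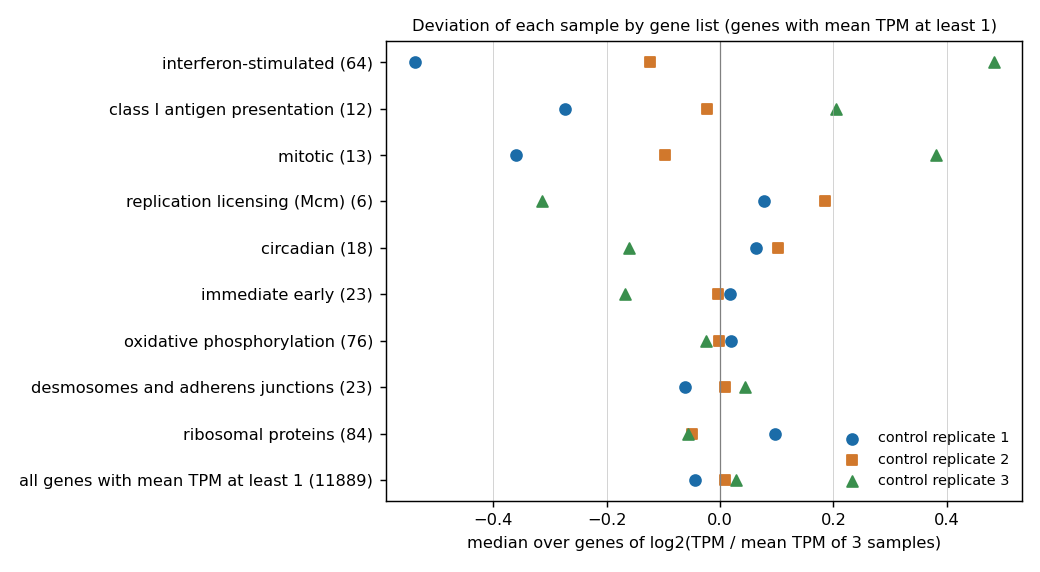
Median over the genes of each list (number with a mean of at least 1 TPM in brackets) of log2 of TPM over the 3-sample mean, for each control sample. All genes together lie within 0.05 of 0, replicate 3 lies to the right for interferon-stimulated, class I and mitotic genes and to the left for *Mcm* and circadian genes, and replicate 1 lies to the right for ribosomal protein genes.

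The 3 highest genes varied little between these samples. The CV was 5.31% for *Krt12*, 4.72% for *Aldh3a1* and 3.99% for *Krt5*, beside a median of 5.31% over all genes above 1000 TPM. *Gsto1*, at rank 4, had a CV of 21.1%. The desmosome list held 1.21% ± 0.029 of TPM. The share of the interferon-stimulated list, by contrast, differed 1.75-fold between the highest and the lowest sample, and 1.23-fold between replicates 1 and 2.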

How the data were processed

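Bulk RNA-seq of separated corneal epithelium was analysed in 3 control samples; the other group of the series was not used here. According to the submitters' processing notes, the authors mapped reads to mm9 with Bowtie2 2.2.5 and quantified genes with RSEM 1.2.12. The study's methods describe rRNA depletion and DNA nanoball sequencing, whereas the labels name an Illumina TruSeq kit. The authors deposited expected counts, which are RSEM's unscaled estimates per gene, together with TPM and FPKM values, which scale for length and depth. Reads that fit more than one gene are split by RSEM. Among expected counts above 0, 39.4% were not whole (tolerance 0.005), and the levels of near-identical genes are uncertain. Replicate numbers came from the labels, and 0 columns of other samples were used.

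Genes were ranked by mean TPM, and shares are percentages of the TPM sum of a sample. Detection was set at 1 TPM in all 3 samples. FPKM served only to derive effective lengths. Named genes were the 4 markers, the 30 highest by mean TPM, up to 6 leading members of each list and low defining genes of other cell types, all hedgehog genes, and the 10 genes of highest CV (mean TPM of at least 10) and lowest CV (at least 100). Others were named after their values were seen. A few genes that this rule covers are not reported here. Members and lists were chosen with earlier results of these data known. The interferon, class I, mitotic and *Mcm* lists were written after the control values were seen.

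With 1 group no test was made. Rounded counts gave the biological coefficient of variation with edgeR 4.0.16 (TMM, filterByExpr) in R 4.3.3, and DESeq2 1.42.0 gave size factors as an alternative. Promoters are RefSeq sequences on GRCm38.p6, another build than that of the reads, and no gene coordinates were carried over.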

Additional observations from a re-analysis of the deposited data

How the results depend on the processing

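The number of genes detected lay between 10855 (2 TPM in all 3 samples) and 12477 (10 expected counts in all 3), beside the 11578 reported, and between 11641 and 11714 with 1 sample left out. Expected counts in place of TPM weight long genes. With them the 10 highest genes by CPM held 13.2% in place of 17.5%, the same 10 genes held 12.1%, and 648 genes in place of 259 made up 50%. Keratins then held 7.50% in place of 8.51%, ribosomal protein genes 3.59% in place of 10.7%, crystallin and defence enzymes 3.71% in place of 4.46% and stromal markers 0.0658% in place of 0.0244%. With ribosomal protein genes left out, the 10 highest held 19.6% and 317 genes made up 50%. Stromal markers held 0.0106% without *Fn1* and 0.00395% without the 3 members at 5 TPM or more, an alternative chosen after seeing the data. The latter share was 0.00143% without replicate 3, so it rests on that sample.

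Leaving out 1 sample at a time gave 17.5% to 17.6% for the 10 highest genes, 250.5 to 270.0 genes for 50%, a median CV of 5.76% to 7.16%, 8.41% to 8.65% for keratins, 10.3% to 10.9% for ribosomal protein genes, 4.37% to 4.51% for crystallin and defence enzymes and 0.0223% to 0.0262% for stromal markers. The median CV was 6.45% with a mean of at least 10 TPM and 11.6% for all genes above 0, and 7.41% and 7.39% with TMM and DESeq2 scaling.

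No paired analysis was possible because only 1 group was used and no test was made. Levels under about 1 TPM rest on few counts, and 3 samples give only a rough SD for any single gene.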
